A study of Homo sapiens with 4 samples.

Results

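Tubulin isotypes were followed in 4 libraries of 2 human bone cancer cell lines, JJ012 (labelled human chondrosarcoma) and 143B (labelled human osteosarcoma). The members were 10 genes chosen by symbol from the 61806 genes of the authors' table, namely the 4 alpha-tubulin genes TUBA1A, TUBA1B, TUBA1C and TUBA4A and the 6 beta-tubulin genes TUBB, TUBB2A, TUBB2B, TUBB3, TUBB4B and TUBB6. Each line was grown in suspension, untreated in the control and with 1 mM melatonin for 72 h in the treated culture, and each of the 4 conditions had 1 library. Both groups of a line therefore share detachment from the substrate, and no adherent culture was analysed here. The libraries held between 15889564 and 19218343 counts. With 1 library per condition no difference could be set against the spread between cultures, and all intervals given here cover counting error alone.

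Microtubules are polymers of dimers that pair 1 alpha- with 1 beta-tubulin. Each subunit is encoded by several genes, the isotypes, whose proteins are nearly alike along the body and differ mostly in the acidic tail at the carboxyl end, where glutamate chains are added and, in most alpha-tubulins, the last tyrosine is removed and restored. Cells also hold tubulin mRNA in check by autoregulation, in which TTC5 recognises the first residues of a new tubulin chain on the ribosome and the mRNA is degraded when free dimers are abundant. TUBB and TUBA1B are widely expressed, TUBA1A, TUBB2A, TUBB2B and TUBB3 are best known from neurons, TUBB4B from cilia as well as many other cells, and TUBB6 encodes the divergent class V beta-tubulin.

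The coding starts are shown because the first 4 codons encode the stretch that autoregulation reads. Sequences are the coding strand, 5′ to 3′, of GENCODE 29 transcripts, with the first 12 coding bases in capitals. TUBA1A, TUBA1B and TUBA1C shared the same first 30 bases. The alpha genes had TGC as the fourth codon and the beta genes ATC.
TUBA1A: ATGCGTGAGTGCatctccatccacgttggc
TUBA4A: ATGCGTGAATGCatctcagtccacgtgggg
TUBB: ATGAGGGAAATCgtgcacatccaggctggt
TUBB2A: ATGCGCGAGATCgtgcacatccaggcgggc

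The coding ends of the beta genes are shown because they encode the tails that set these isotypes apart. The last 63 coding bases are given up to and including the stop codon, with the glutamate codons GAA and GAG in capitals. Over these bases TUBB2A and TUBB2B differed at 2 positions.
TUBB: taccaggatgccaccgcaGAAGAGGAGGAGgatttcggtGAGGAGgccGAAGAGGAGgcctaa
TUBB2A: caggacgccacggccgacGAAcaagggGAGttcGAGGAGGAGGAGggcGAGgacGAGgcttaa
TUBB2B: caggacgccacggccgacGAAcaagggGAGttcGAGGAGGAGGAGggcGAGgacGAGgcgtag
TUBB3: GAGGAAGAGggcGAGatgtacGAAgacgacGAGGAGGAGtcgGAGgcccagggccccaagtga
TUBB4B: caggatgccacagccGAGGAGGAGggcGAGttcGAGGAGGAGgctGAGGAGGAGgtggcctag
TUBB6: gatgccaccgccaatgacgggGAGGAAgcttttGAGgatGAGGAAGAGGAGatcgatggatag

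Among the beta genes, glutamate codons made up between 7 of the 20 codons before the stop, in TUBB6, and 10 of 20, in TUBB4B. Across the whole coding sequence, the alpha genes were between 84.4% and 97.2% identical to each other and the beta genes between 80.9% and 98.1%, with TUBB2A and TUBB2B the closest pair. Between an alpha and a beta gene the identity was at most 55.2%.

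Such similar genes can exchange or lose reads in mapping. Of all 150-base windows in the GENCODE 29 transcripts of a member, 41.4% in TUBB2A and 36.1% in TUBB2B also occurred in another gene, mostly in each other. In TUBB3 27.5% did, all of them in a gene on the same strand that overlaps it by 14701 bases and had at most 5 counts in a library. How the counting treated reads lying in both genes is not given in the sources used here. Reads left out there would lower the counts of TUBB3, which was not tested. The share was 6.43% in TUBA1B, 3.84% in TUBA1C, 3.46% in TUBA1A and 1.80% in TUBB, and no window of TUBA4A, TUBB4B or TUBB6 was shared. Among the 10 members, TUBB2A, TUBB2B and TUBB3 thus had the largest shared part, and the other tubulin genes were not examined in this way.

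By the positions in the authors' table, with the build named as hg38 in the submitters' processing notes, TUBA1B (chromosome 12, 49127782 to 49131397, minus strand), TUBA1A (49184686 to 49189080, minus strand) and TUBA1C (49188736 to 49274600, plus strand) lie next to each other. TUBA1A and TUBA1C overlap by 345 bases on opposite strands, and the strand setting of the counting is not given in the sources used here. TUBA4A lies on chromosome 2 from 219249710 to 219277902 on the minus strand. TUBB2A (3153497 to 3157544) and TUBB2B (3223324 to 3231730) are separated by 65779 bases on the minus strand of chromosome 6, which also carries TUBB (30717435 to 30725538, plus strand). TUBB3 lies on chromosome 16 from 89921392 to 89938761, TUBB4B on chromosome 9 from 137241287 to 137243707 and TUBB6 on chromosome 18 from 12307669 to 12344320, all on the plus strand. The gene bodies of all 10 members overlap at least 1 other gene of the table, in TUBB6 the gene AFG3L2 on the other strand.

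The labels of the lines were set against marker genes fixed for this purpose. In JJ012, the chondrocyte regulator SOX9 had 15.06 FPKM in the control and 6.16 FPKM with melatonin, whereas the cartilage matrix gene COL2A1 was listed at 0 in both libraries and ACAN had 0.02 FPKM in each. SOX9 was no lower in 143B, with 15.48 and 12.09 FPKM. In 143B, the osteoblast regulator RUNX2 had 4.28 and 2.75 FPKM, and SP7 was listed at 0 and at 0.02 FPKM. The osteoblast matrix gene SPP1 had 79.39 and 64.50 FPKM in JJ012 and 0.40 and 0.53 FPKM in 143B. Of 10 neuronal markers 1 reached 1 FPKM in each library, MAP2 in JJ012 and STMN2 in 143B. Their summed level was 3.08 FPKM in the control and 5.77 FPKM with melatonin for JJ012, and 4.28 and 8.35 FPKM for 143B, and ELAVL4, INA and DCX were at most at 0.01 FPKM. The part of these levels in the values of TUBB3 and TUBB2B was not tested.

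**Figure D1:**
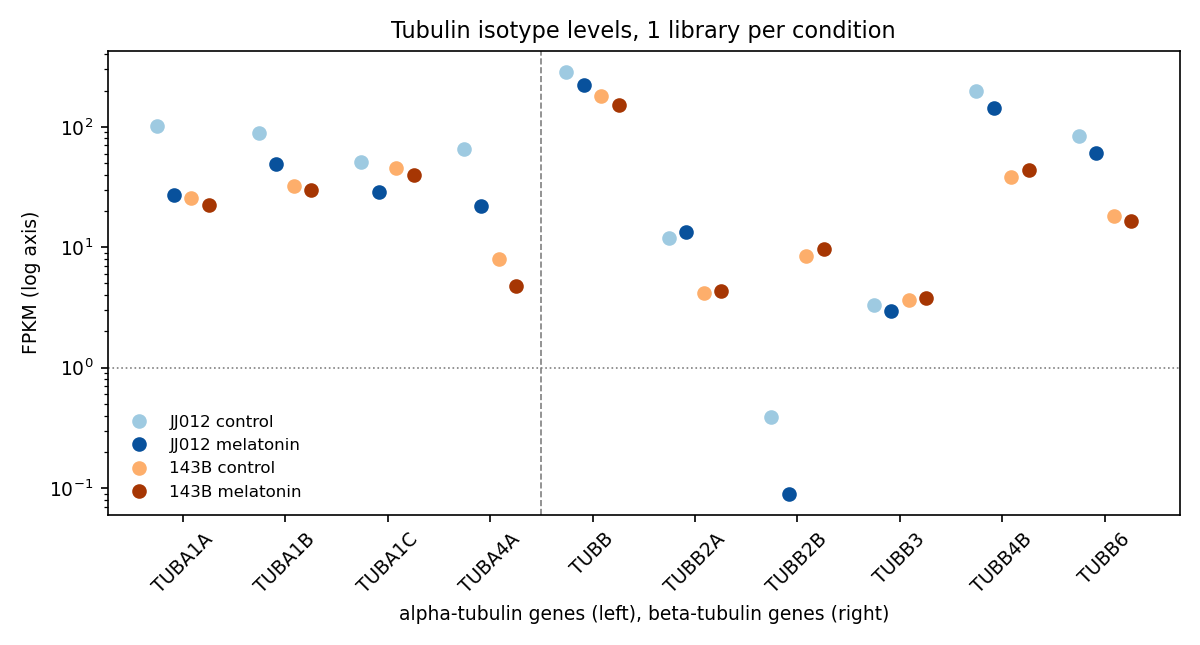
FPKM (log axis) of the 10 tubulin genes, alpha on the left and beta on the right of the dashed line, with 1 point per library and a dotted line at 1 FPKM. TUBB was the highest in every library, and TUBA1A in JJ012 moved from 102.24 FPKM in the control to 26.99 FPKM with melatonin.

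FPKM are counts per kilobase of exonic length and per library total, which puts the members of a library on a common scale. The exonic length is 1 value per gene, from 2037 bases in TUBB4B to 7421 in TUBB3. The lengths of the transcripts present were not measured, and the order of members depends on the lengths used. TUBB, class I beta-tubulin, had the highest level per length in all 4 libraries, with 285.90 and 220.90 FPKM in JJ012 control and melatonin and 178.62 and 151.44 FPKM in 143B. In the JJ012 control it was followed by TUBB4B (197.94 FPKM), TUBA1A (102.24 FPKM), TUBA1B (89.03 FPKM), TUBB6 (83.31 FPKM), TUBA4A (64.98 FPKM) and TUBA1C (51.30 FPKM), and TUBB2A, TUBB3 and TUBB2B were at 11.87, 3.34 and 0.39 FPKM. All neighbours in this order differed by more than their counting error. With melatonin the order after TUBB and TUBB4B became TUBB6, TUBA1B, TUBA1C, TUBA1A and TUBA4A, and TUBA1C and TUBA1A no longer differed beyond counting error (ratio of levels 1.06, 95% interval 0.994 to 1.13).

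In the 143B control the order was TUBB, TUBA1C (45.36 FPKM), TUBB4B (38.65 FPKM), TUBA1B (32.17 FPKM), TUBA1A (25.73 FPKM), TUBB6 (18.32 FPKM), TUBB2B (8.53 FPKM), TUBA4A (8.03 FPKM), TUBB2A (4.14 FPKM) and TUBB3 (3.63 FPKM). TUBB2B and TUBA4A did not differ beyond counting error there, nor did TUBB2A and TUBB3. The most abundant alpha gene was thus TUBA1A in untreated JJ012 and TUBA1C in untreated 143B.

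In JJ012 the question was how the tubulin genes stood with melatonin against the control. All 4 alpha genes were lower with melatonin, by 1.79-fold to 3.79-fold, and the beta genes that could be counted were lower by at most 1.39-fold or were close to the control. The log2 FPKM with 1 added to each value were compared, melatonin less control, and a gene was counted as changed when this log2 fold change was at least 0.58 in size, the fold threshold of the study's methods. Genes below 1 FPKM in both libraries of a line were left out, and 1 added to low values makes their fold changes smaller than those of CPM. Of the 9 members that passed this filter, 4 were counted as lower, all of them alpha genes, and 0 as higher. Among all 15794 genes counted in JJ012, 18.6% were lower and 19.6% higher, 38.2% in all, and among the 2612 genes that reached 20 FPKM, as all members lower in JJ012 did, 24.7% were lower. Higher genes made up 51.4% of those that changed, and 68.9% when the libraries were scaled as TPM, which sets the summed level per length equal. The median log2 fold change was -1.19 over the alpha genes, -0.37 over the 5 beta genes and 0.01 over all genes. In bulk RNA, fewer cells of a kind and less RNA per cell cannot be told apart.

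TUBA1A, the alpha isotype prominent in the developing brain, had 7512 counts in the JJ012 control and 1666 counts with melatonin, or 102.24 and 26.99 FPKM. Its log2 fold change was -1.88, and by counts over the library total (CPM) it was 3.79-fold lower, with an exact 95% interval of 3.59 to 4.00. Of all genes counted in JJ012, 0.633% had a lower log2 fold change. TUBA4A had 4618 and 1313 counts (64.98 and 21.99 FPKM), a log2 fold change of -1.52. By CPM it was 2.95-fold lower, with an interval of 2.78 to 3.14. These were the members with the largest falls among those that passed the filter.

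The widely expressed TUBA1B had 6115 and 2812 counts (89.03 and 48.74 FPKM), a log2 fold change of -0.86, and was 1.83-fold lower by CPM (interval 1.75 to 1.91). TUBA1C had 4391 and 2059 counts (51.30 and 28.64 FPKM), a log2 fold change of -0.82, and was 1.79-fold lower (interval 1.70 to 1.89). The intervals of these neighbouring genes overlapped with each other and lay apart from those of TUBA1A and TUBA4A. TUBA1A and TUBA1B, the closest pair of alpha genes by coding identity, therefore differed in the size of their fall by more than counting error.

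Among the beta genes, TUBB had 22368 and 14518 counts in JJ012 (285.90 and 220.90 FPKM), a log2 fold change of -0.37. TUBB4B, class IVb beta-tubulin, had 7749 and 4669 counts (197.94 and 141.98 FPKM), a log2 fold change of -0.48. TUBB6 had 6310 and 3829 counts (83.31 and 60.18 FPKM), a log2 fold change of -0.46. Each of these had a CPM ratio below 1 with its whole interval, and none reached the threshold. The class II gene TUBB2A stood the other way, with 663 and 624 counts, 11.87 and 13.30 FPKM and a CPM ratio of 1.12 (interval 1.00 to 1.25). TUBB3, the class III beta-tubulin used as a neuronal marker, had 476 and 353 counts and a ratio of 0.883, with an interval of 0.767 to 1.02 that included 1. TUBB2B had 31 and 6 counts and did not pass the filter, with a CPM ratio of 0.230 and an interval of 0.0786 to 0.561.

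**Figure D2:**
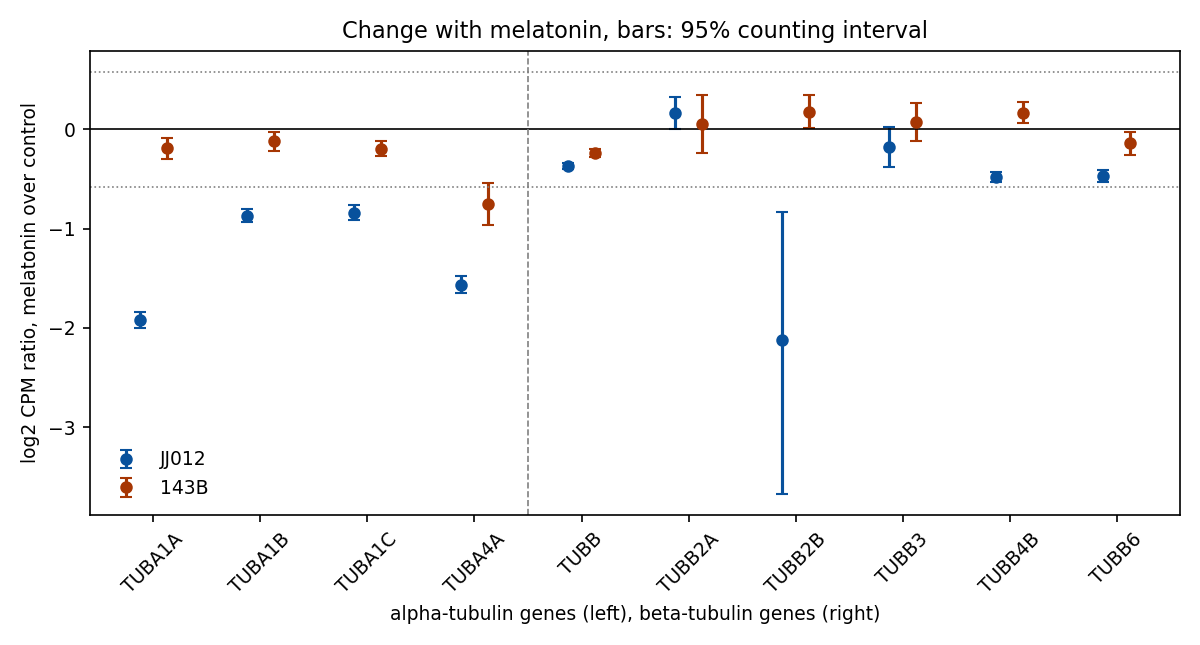
Log2 ratio of CPM, melatonin over control, for each tubulin gene in JJ012 (blue) and 143B (brown), with exact 95% counting intervals as bars and dotted lines at 0.58 in either direction. In JJ012 the 4 alpha genes lie between -1.92 and -0.84, below TUBB, TUBB4B and TUBB6, and the wide bar is TUBB2B with 31 and 6 counts.

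In 143B the same comparison gave small differences, and TUBA4A was the single member counted as changed. Of the 10 members, all of which passed the filter, 1 was counted as lower and 0 as higher, against 6.65% lower and 6.09% higher, 12.7% in all, among the 14135 genes counted. TUBA4A had 472 counts in the control and 303 with melatonin (8.03 and 4.77 FPKM), a log2 fold change of -0.65. By CPM it was 1.68-fold lower, with an interval of 1.45 to 1.95. The median log2 fold change was -0.19 over the alpha genes, 0.05 over the beta genes and 0.03 over all genes.

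The other alpha genes of 143B were below the control by more than counting error but far from the threshold. TUBA1A had 1563 and 1478 counts (25.73 and 22.52 FPKM), with a CPM ratio of 0.875 (interval 0.815 to 0.940). TUBA1B had 1827 and 1818 counts, with a ratio of 0.921 (0.863 to 0.983). TUBA1C had 3210 and 3033 counts, with a ratio of 0.875 (0.832 to 0.919). TUBA1A, whose fall was the largest in JJ012 among members that passed the filter, thus differed little from its alpha neighbours in 143B.

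Of the beta genes in 143B, TUBB had 11554 and 10582 counts and a ratio of 0.848 (interval 0.826 to 0.871). TUBB6 had 1147 and 1123 counts and a ratio of 0.906 (0.834 to 0.985). TUBB4B had 1251 and 1519 counts, a ratio of 1.12 (1.04 to 1.21), and TUBB2B 564 and 690 counts, a ratio of 1.13 (1.01 to 1.27). For TUBB2A (191 and 214 counts) and TUBB3 (428 and 486 counts) the intervals included 1, so that no difference was detectable at this depth.

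The difference between the log2 CPM ratios of the lines was computed for each member, as the lines share no library. It was lower in JJ012 for 8 of 10 members, with the whole counting interval below 0, and the interval included 0 for TUBB2A and TUBB3. The difference was -1.73 for TUBA1A (95% interval -1.86 to -1.60), -0.81 for TUBA4A (-1.04 to -0.59), -0.75 for TUBA1B (-0.86 to -0.64) and -0.65 for TUBA1C (-0.75 to -0.54). For TUBB it was -0.13 (-0.18 to -0.09), which became -0.04 (-0.08 to 0.01) with the length trend described below removed. With that trend removed, the interval of TUBB3 lay below 0 (-0.45, -0.72 to -0.18) and that of TUBB2A above 0 (0.38, 0.06 to 0.70). Variation between cultures is not covered by these intervals.

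**Figure D3:**
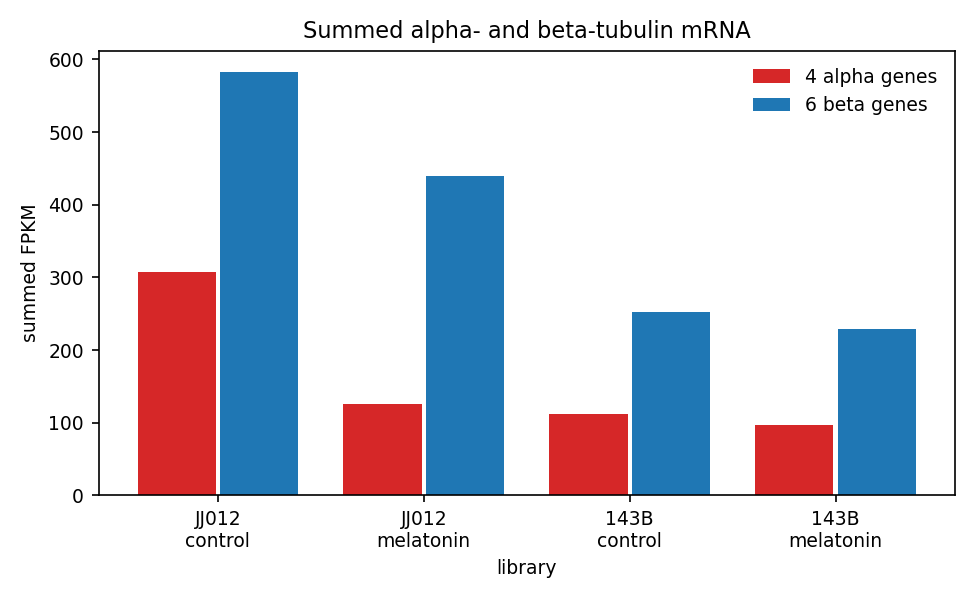
Summed FPKM of the 4 alpha genes (red) and the 6 beta genes (blue) in each library. In JJ012 the alpha sum was 307.55 FPKM in the control and 126.36 FPKM with melatonin, while the beta sum was 582.75 and 439.40 FPKM.

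Since alpha and beta chains are used in equal number, the summed mRNA of the members of each class was compared. Other tubulin genes, among them TUBA3C, TUBA3D, TUBA3E and TUBB4A in JJ012 and TUBAL3 in 143B, were not in these sums. In JJ012 the alpha sum was 307.55 FPKM in the control and 126.36 FPKM with melatonin, 2.43-fold lower, and the beta sum was 582.75 and 439.40 FPKM, 1.33-fold lower. In 143B the alpha sum was 111.29 and 96.59 FPKM and the beta sum 251.89 and 229.25 FPKM, 1.15-fold and 1.10-fold lower. Per length, the beta members had 1.89 times as much mRNA as the alpha members in the JJ012 control and 3.48 times with melatonin. In 143B they had 2.26 and 2.37 times as much.

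The ratio of beta to alpha counts does not depend on the library total. It was 1.66 in the JJ012 control and 3.06 with melatonin, a log2 change of 0.88 (95% interval 0.84 to 0.92). In 143B there were 15135 beta and 7072 alpha counts in the control and 14614 and 6632 with melatonin, a log2 change of 0.04 (interval -0.02 to 0.10). The changes differed by 0.84 between the lines (interval 0.77 to 0.91). With TUBA1A left out, the log2 change in JJ012 was 0.64 (interval 0.59 to 0.69), so that the shift did not rest on this gene alone. In 143B the interval lay above 0 with TUBB left out, where the change was 0.26 (0.18 to 0.34), and with TUBA1B left out, where it was 0.07 (0.0079 to 0.14).

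**Figure D4:**
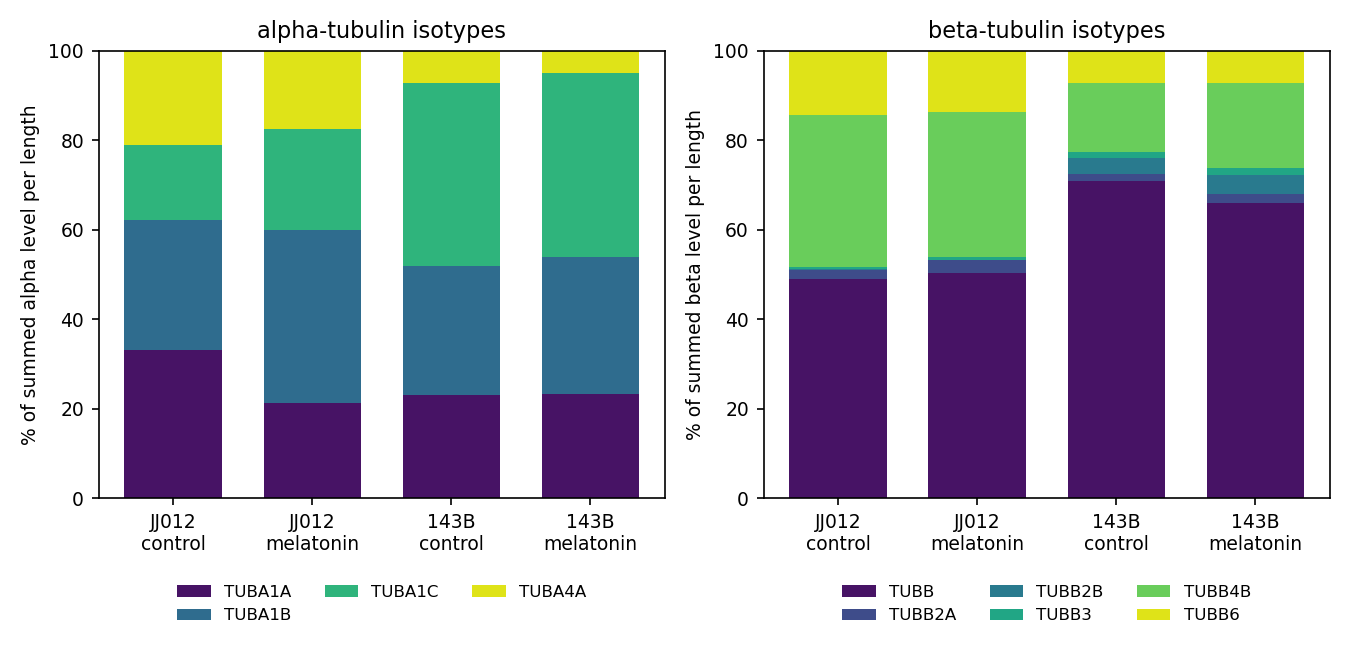
Share of each isotype in the summed level per length of its class, in percent, for the alpha genes (left) and the beta genes (right) of each library. In JJ012 the TUBA1A share of the alpha level was 33.2% in the control and 21.4% with melatonin, and the alpha bars of 143B differ mostly in TUBA4A.

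The make-up of the alpha pool, taken over the alpha members alone, differed between control and melatonin in JJ012. The share of TUBA1A in the alpha level per length was 33.2% (95% counting interval 32.6 to 33.9) in the control and 21.4% (20.5 to 22.3) with melatonin, and that of TUBA4A was 21.1% (20.6 to 21.7) and 17.4% (16.6 to 18.3). TUBA1B had 28.9% (28.4 to 29.6) and 38.6% (37.5 to 39.7), which made it the leading alpha isotype with melatonin. TUBA1C had 16.7% (16.2 to 17.1) and 22.7% (21.8 to 23.6). In 143B the share of TUBA4A was 7.22% (6.62 to 7.87) in the control and 4.94% (4.43 to 5.51) with melatonin, and that of TUBA1A 23.1% and 23.3%, within counting error.

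In the beta pool of JJ012, taken over the beta members alone, the shares of the abundant isotypes lay closer together. TUBB had 49.1% and 50.3% of the beta level, TUBB4B 34.0% and 32.3%, and TUBB6 14.3% and 13.7%. Not divided by length, TUBB had 59.5% and 60.5% of the beta counts and TUBB4B 20.6% and 19.5%, so these shares depend on the exonic lengths. In 143B the share of TUBB was 70.9% (interval 70.1 to 71.7) in the control and 66.1% (65.2 to 66.9) with melatonin, and that of TUBB4B 15.3% (14.6 to 16.1) and 19.0% (18.2 to 19.8).

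Between the untreated lines, most members had more mRNA in JJ012. Of the 10 members, 7 were counted as higher in JJ012 and 1 as lower, against 41.3% higher and 27.4% lower, 68.7% in all, among the 16929 genes counted. Higher genes were 60.1% of those that differed, but 49.3% with TPM, 48.6% centred on the median gene and 47.8% less the length trend, and 6 members were then higher. The largest ratio by CPM was that of TUBA4A, 8.09-fold higher (interval 7.36 to 8.91), followed by TUBB4B, 5.12-fold (4.82 to 5.44), and TUBB6, 4.55-fold (4.27 to 4.85). The length trend moved this order, since less the trend the log2 fold change of TUBB4B was 1.40 in place of 2.33, below TUBB6 (1.66) and TUBA1A (1.44), and that of TUBB2A was 0.60 in place of 1.32. TUBA1A was 3.97-fold higher, with a log2 CPM ratio of 1.99 (1.91 to 2.07). TUBB2B was the exception, 22.0-fold lower in JJ012 by CPM, with 31 counts against 564 in 143B. TUBA1C and TUBB3 did not reach the threshold, and TUBB did so with a log2 fold change of 0.68, which was 0.39 once centred on the median gene of 0.29. The melatonin library of JJ012 had 26.99 FPKM of TUBA1A, close to the 25.73 FPKM of untreated 143B, while TUBA4A had 21.99 and 8.03 FPKM.

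**Figure D5:**
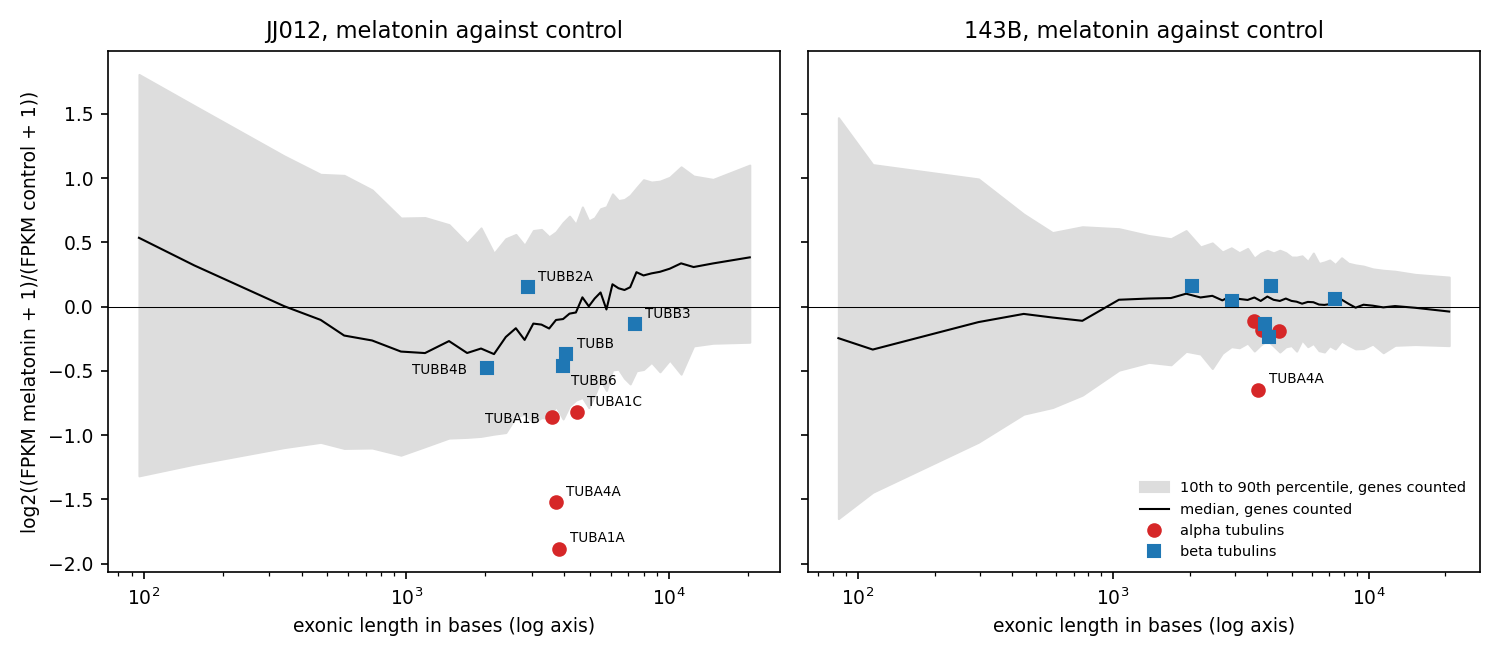
Log2 fold change (melatonin against control, FPKM + 1) against exonic length (log axis) in JJ012 and 143B, with the median (line) and the 10th to 90th percentile (grey) of all genes counted, in 40 groups of equal size by length. Alpha genes are red circles and beta genes blue squares, and in 143B the single member counted as changed is named. In JJ012 TUBA1A (-1.88) and TUBA4A (-1.52) lie far below the grey band at their length.

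In JJ012 the log2 fold change varied with exonic length over all genes. The median was -0.33 over the 1688 genes of 1500 to 2500 bases and 0.32 over the 2955 genes of at least 8000 bases, whereas in 143B it was 0.08 and 0.00. The members have 2037 to 7421 bases of exonic length. With the running median over length subtracted, the alpha genes of JJ012 had a median of -1.10 and all 4 were still counted as lower, while TUBB4B, the shortest member, had -0.10 in place of -0.48. With TPM the median over all genes of JJ012 was 0.27 in place of 0.01, and TUBA1C, at -0.56, was not counted, which left 3 members lower. TUBB3 then had 0.09 in place of -0.14. The part of the length trend in the members' differences beyond these values was not tested.

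Of the 12 other tubulin genes, 8 passed the filter in JJ012, 4 as higher and 1 as lower, against 19.6% and 18.6% over all genes. In 143B 5 passed, 0 as higher and 1 as lower, against 6.09% and 6.65%. TUBA3C had 477 and 198 counts in JJ012 (16.32 and 8.06 FPKM), 2.02-fold lower, while TUBA3E had 95 and 148 counts (3.26 and 6.04 FPKM) and TUBA3D 28 and 68 counts (0.93 and 2.68 FPKM), both counted as higher. TUBA3C and TUBA3E had 0 counts in both 143B libraries. Windows shared among TUBA3C, TUBA3D and TUBA3E were not examined. TUBB4A, class IVa beta-tubulin, had 3.56 and 6.73 FPKM in JJ012 and was 1.89-fold higher by CPM (interval 1.60 to 2.25), while TUBB4B was below its control. TUBAL3 had 218 and 110 counts in 143B (7.65 and 3.57 FPKM), 2.14-fold lower, and at most 13 counts in JJ012. The gamma-tubulin genes TUBG1 and TUBG2, which nucleate microtubules, had 942 and 836 counts and 865 and 671 counts in JJ012, and 244 and 327 counts and 598 and 472 counts in 143B, all under the threshold. TUBE1, of the centriole, had 1.24 and 2.74 FPKM in JJ012 and was counted as higher, while TUBD1 had 1.48 and 1.13 FPKM. In 143B TUBE1 had 7.46 and 7.93 FPKM.

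The genes that make and control tubulin dimers were read next. Of the 20 counted genes for tubulin folding, which include the CCT chaperonin, prefoldin and the tubulin cofactors, 1 was lower and 0 higher in JJ012. The shares over all genes there were 18.6% and 19.6%, and the median log2 fold change of the list was -0.13. In 143B 1 was higher, against 6.09% over all genes, with a median of 0.10. The gene was ARL2, a small GTPase that works with the cofactors, in both lines. It had 1142 and 553 counts in JJ012, 1.73-fold lower, a log2 fold change of -0.76 that was -0.38 less the length trend, and 244 and 412 counts in 143B, 1.56-fold higher, 0.58 and 0.49 on these scales. Of the autoregulation genes, TTC5 had 1.06 and 1.70 FPKM in JJ012, 1.61-fold by CPM (interval 1.33 to 1.94), and 0.64 and 1.12 FPKM in 143B, 1.74-fold (1.36 to 2.24), both under the threshold on the scale with a pseudocount. SCAPER, an adaptor of TTC5, had 1.65 and 3.60 FPKM in JJ012 and was counted as higher, with a log2 fold change of 0.80 that was 0.45 less the length trend. In 143B SCAPER had a CPM ratio of 0.926 (0.808 to 1.06). CNOT11 stood the other way in JJ012, with 29.27 and 25.06 FPKM and a ratio of 0.856 (0.791 to 0.926). In 143B it had 12.79 and 16.28 FPKM, a ratio of 1.27 (1.14 to 1.42). Of these 3 genes, 1 was counted as higher in JJ012, against 19.6% over all genes, and 0 in 143B. TTC5, SCAPER and CNOT11 were named after their values were seen.

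Among the 15 counted genes for tubulin modification in JJ012, 3 were higher and 2 lower, against 19.6% higher and 18.6% lower over all genes, and its median log2 fold change was 0.12, or -0.18 less the length trend. TTL, the ligase that restores the terminal tyrosine, had 987 and 1803 counts, 2.17-fold higher (interval 2.01 to 2.35), and VASH1, which removes it, had 759 and 346 counts, 1.84-fold lower. In 143B VASH1 stood the other way, with 442 and 801 counts, 1.68-fold higher (interval 1.49 to 1.89). TTLL4, which starts glutamate chains, was 2.84-fold higher in JJ012, and of the enzymes that trim them AGBL5 was 1.70-fold lower and AGTPBP1, named after its values were seen, 1.56-fold higher (interval 1.43 to 1.70). STMN1, stathmin, which binds free dimers, had 14.29 and 7.90 FPKM in JJ012, 1.81-fold lower (interval 1.66 to 1.97). STMN2 had 115 and 262 counts in 143B, 2.11-fold higher, and at most 6 counts in JJ012.

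Genes whose products bind the polymer were then read in JJ012. Of the 10 counted genes of the lattice-binding list 5 were higher and 0 lower. MAP1B had 3211 and 6627 counts, 2.46-fold higher, and MAP2 was 2.44-fold and MAP7D3 2.09-fold higher. The 10 include ENSA, alpha-endosulfine, which is not known as a lattice-binding protein and was under the threshold (log2 fold change 0.22). Of 10 plus-end genes 5 were higher and 0 lower, led by CLIP2 (2.45-fold), CLIP1 (2.49-fold) and the polymerase CKAP5 (2.11-fold). Medians were 0.44 and 0.52 over these lists, and 0.28 and 0.45 less the length trend, against 0.01 over all genes. Of all genes counted in JJ012, 19.6% were higher and 18.6% lower. Of 21 transport motor genes 10 were higher and 2 lower, with KIF16B at 3.78-fold higher and the dynein light chain DYNLT3 at 2.22-fold lower. Their median of 0.48 was 0.16 less the length trend.

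Of 17 nucleation genes in JJ012 4 were higher and 3 lower, near the shares over all genes (19.6% and 18.6%), with a median log2 fold change of 0.12 that was -0.07 less the length trend. The augmin subunit HAUS6 had 66.03 and 166.47 FPKM, 2.52-fold higher, NEDD1 was 1.70-fold higher, and MZT2B and MZT2A, small subunits of the gamma-tubulin ring, were 2.59-fold and 2.18-fold lower. Of 9 severing and depolymerising genes 3 were higher and 1 lower, with KIF2A at 2.00-fold and KATNAL1 at 1.83-fold higher. In 143B the lists for lattice binding, nucleation and transport motors had 0 genes counted in either direction. The plus-end list had 1 gene higher, SLAIN1 (1.65-fold), and the severing list 3 lower, with KIF2C at 298 and 172 counts, 1.87-fold lower. The 12 lists, which include actins and intermediate filaments, held 157 genes of the authors' table, not all of which passed the filter. Of those that passed, 37 were higher and 17 lower in JJ012, against 50 and 12 with TPM and 24 and 20 less the length trend. These counts are not out of 157, and the shares over all genes are likewise of genes that passed. Over all genes of JJ012, 19.6% were higher and 18.6% lower, 34.6% and 15.6% with TPM, and 18.1% and 16.4% less the length trend. Among the list genes that passed in 143B, 4 were higher and 6 lower, against 7 and 7 by CPM and 2 and 6 when centred. Over all genes of 143B, the shares were 6.09% and 6.65%, 6.29% and 5.07% by CPM, and 5.47% and 7.17% when centred.

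The genes whose level over the 4 libraries was most like the sum of the 10 members were sought among 2056 genes with a mean of at least 20 FPKM, by the largest difference in any library between the log2 levels (FPKM + 1), each less its own mean. They were PDIA6, a disulfide isomerase of the endoplasmic reticulum, with a largest difference of 0.02 and levels of 155.06 and 98.00 FPKM in JJ012 and 61.11 and 54.96 FPKM in 143B, RHEBP2, a pseudogene, with 0.05, and TCEAL4, with 0.08. With 4 libraries and many candidates, this is a description of these levels.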

How the data were processed

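RNA of JJ012 and 143B cells in suspension, control or with melatonin, was measured in 4 libraries from poly(A)-selected RNA, sequenced as paired ends of 150 bases. The authors deposited 1 table of 61806 genes with counts per gene and library, without normalization, and FPKM, which are these counts over exonic length and library total, rounded to 2 decimals. The submitters' processing notes name cutadapt 1.9.1, HISAT2 2.2.1, HTSeq 0.6.1 and DESeq2, and the build hg38. Settings, strand and annotation are not given in the sources used here. Columns were assigned by cell line, a final T in a name being taken for melatonin, which the labels do not spell out. The table lists all 10 members on the chromosome and strand of GENCODE 29, with both ends the same for 3.

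Fold changes used FPKM with a pseudocount of 1, a filter of 1 FPKM in at least 1 library of the line and a threshold of 0.58. CPM ratios had exact (Clopper-Pearson) 95% intervals. Intervals of shares, of beta to alpha ratios and of differences between lines were normal on the log scale from the counts. The intervals treat all counted reads as independent. Reads copied by PCR are not, so the intervals may be too narrow even for counting error, and they cover no other variation. With 1 library per condition neither comparison within a line leaves residual degrees of freedom, so edgeR's quasi-likelihood test was not run and no p-value is given. A model with line and melatonin as additive terms would leave 1 and was not run. The floor of 3 counts was 0.156 to 0.189 CPM. The length trend was a running median over 501 genes. Named list genes had at least 5 FPKM and were counted as changed, at most 4 per list and line, and other tubulin genes were named by level from 1 FPKM in any library. The coding ends of the alpha genes are not reported here. Coding sequences, their pairwise identity in global alignment and windows came from GENCODE 29 transcripts. The members, lists and tests were chosen with earlier results of these data known. The procedures were tested on simulated counts. Alternatives were a pseudocount of 0.1, TPM, CPM, centring, length correction, a threshold of 1, no filter and a filter of 5 FPKM. Scripts ran in Python 3.11.15 with pandas 2.3.3, scipy 1.17.1, matplotlib 3.10.9 and numpy 2.4.6.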

Additional observations from a re-analysis of the deposited data

Results flagged for a closer look

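For 2 members the libraries stood on opposite sides of their controls in the lines, each by more than counting error before any length correction. TUBB4B had a log2 CPM ratio of -0.48 in JJ012 and 0.17 in 143B, a difference of -0.65. With the length trend of each line removed, the difference was -0.18 (95% interval -0.30 to -0.06). Less the trend, the log2 fold change (FPKM + 1) of TUBB4B was -0.10 in JJ012 and 0.08 in 143B, in place of -0.48 and 0.16. TUBB2B had -2.12 in JJ012, from 31 and 6 counts, and 0.18 in 143B, a difference of -2.30, with 36.1% of its windows shared with other genes. Neither difference was tested against variation between cultures.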

How the results depend on the processing

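The members counted as lower in JJ012 numbered 4 in the reported setting and 3 with TPM, and 4 with the smaller pseudocount, CPM, centring, length correction or either filter. With a threshold of 1 they were 2 in JJ012 and 0 in 143B. The log2 ratio of the summed FPKM with TPM was -1.01 for alpha and -0.13 for beta in JJ012 (-1.28 and -0.41 as reported), and -0.26 and -0.19 in 143B (-0.20 and -0.14). Between the untreated lines, 6 members were higher with TPM, centring, length correction or a threshold of 1. TPM moved the share of higher genes among all changed genes of JJ012 from 51.4% to 68.9%. Over the 12 lists, the 37 higher genes of JJ012 were 24 with length correction and 10 with a threshold of 1, which left 5 of the 17 lower. A threshold of 1 left 7.86% higher and 6.88% lower over all genes of JJ012. The 4 higher genes of 143B were 8 with the smaller pseudocount, 7 with CPM and 2 with centring or length correction, and a threshold of 1 left 0 in either direction. The higher share over all genes of 143B was 6.09% as reported and 10.7% with the smaller pseudocount. The 42 list genes higher in untreated JJ012 were 26 with centring and 22 with a threshold of 1. The higher share over all genes there was 41.3%, with 32.6% after centring and 28.7% at a threshold of 1. No called member changed sign under these alternatives. The cause of these shifts was not tested. Depth limited TUBB2B in JJ012 most.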

Other observations

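Of the 4 counted actin genes in JJ012, 2 were higher and 1 lower, against 19.6% and 18.6% over all genes. Their median log2 fold change was 0.07. The lower one was ACTA2, smooth muscle actin, with 90 and 7 counts, named after its values were seen. The cytoplasmic actin genes ACTB and ACTG1 had 572.33 and 937.82 FPKM and 363.86 and 618.37 FPKM in control and melatonin, 1.64-fold and 1.70-fold higher by CPM. VIM, the mesenchymal intermediate filament vimentin, had 60778 and 18740 counts, 2.72-fold lower (610.99 and 224.27 FPKM). KRT18 was 1.84-fold lower, and the lamin LMNB1 had 368 and 163 counts. In JJ012 5 of the 9 counted intermediate filament genes were lower and 0 higher, against 18.6% lower over all genes, and 4 did not pass the threshold. In 143B 0 of the 3 counted actin genes were changed, against 12.7% over all genes. Of the 7 counted intermediate filament genes there, 2 were lower and 0 higher, against 6.65% and 6.09% over all genes. These were LMNA and KRT18, 1.68-fold and 1.58-fold lower.

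The table holds 51 alpha- and beta-tubulin pseudogenes by symbol. Their summed counts were 218 in the JJ012 control and 337 with melatonin, and 71 and 53 in 143B.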
